A study of Mus musculus with 9 samples.

Results

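The comparison set 2 libraries of chromatin from bone marrow cells without Igf2bp2 (genotype Igf2bp2KO) against 2 libraries from wild-type cells (WT). These are 4 of the 9 samples of the series and 4 of its 6 peak lists. They were chosen by their genotype label and by the antibody, which was against H3R2me2a, asymmetrically dimethylated arginine 2 of histone H3, with both methyl groups on 1 nitrogen. Chromatin immunoprecipitation with sequencing (ChIP-seq) was used, on chromosomes 1 to 19. All 4 libraries came from mouse bone marrow, described as leukemia cells in the text of the series. The cells of both genotypes were grown with interleukin 3, interleukin 6 and stem cell factor, so neither genotype was free of these cytokines. The labels give no age, no treatment and no extent of the Igf2bp2 deletion, and they do not say whether same-genotype libraries came from separate animals or cultures. Every p-value below therefore measures only the spread between these libraries, which may be technical. A list of peaks of a histone mark holds no RNA level, so neither the loss of Igf2bp2 nor the cell type could be checked against marker expression.

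IGF2BP2 is a reader protein that binds messenger RNAs carrying N6-methyladenosine (m6A) and stabilises them. H3R2me2a is deposited mainly by the arginine methyltransferase PRMT6, and it hinders the trimethylation of the neighbouring lysine 4 that marks active gene starts. The title of the series links m6A, PRMT6 and the lipid transporter MFSD2A in leukemia stem cells, and the comparison asks where the mark lies in cells that lack the m6A reader.

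The largest differences in height between the genotypes lay in the Speer cluster of chromosome 5, a tandem array of genes for spermatogenesis-associated glutamate-rich proteins and of predicted genes named Gm. The 250 bases upstream of the start of members of this array are shown first because a peak of an Igf2bp2KO list lay on their start window and because they share long stretches of sequence. Sequences are from RefSeq on the build GRCm38.p6 (mm10), written 5′ to 3′ toward the gene start. Capitals mark bases inside a run of 31 bases that the start window of another gene holds too. A start window here is 250 bases before to 50 bases after a gene start. Gm9758 lies at chr5:14914890-14915139, minus strand, Gm10354 at chr5:14978900-14979149, minus strand, Gm21190 at chr5:15529223-15529472, minus strand and Speer4c at chr5:15714272-15714521, minus strand.
Gm9758: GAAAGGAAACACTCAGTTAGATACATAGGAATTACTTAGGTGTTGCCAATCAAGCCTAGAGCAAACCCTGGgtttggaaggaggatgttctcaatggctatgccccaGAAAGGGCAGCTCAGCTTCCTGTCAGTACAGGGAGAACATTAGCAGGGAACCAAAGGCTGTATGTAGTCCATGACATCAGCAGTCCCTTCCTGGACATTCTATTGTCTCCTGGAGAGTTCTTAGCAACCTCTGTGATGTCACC
Gm10354: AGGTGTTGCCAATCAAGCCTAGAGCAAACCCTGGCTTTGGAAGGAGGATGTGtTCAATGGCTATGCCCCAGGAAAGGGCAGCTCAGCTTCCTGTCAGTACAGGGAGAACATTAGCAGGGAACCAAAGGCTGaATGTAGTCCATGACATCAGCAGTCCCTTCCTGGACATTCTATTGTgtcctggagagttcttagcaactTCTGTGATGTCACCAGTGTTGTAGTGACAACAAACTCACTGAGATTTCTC
Gm21190: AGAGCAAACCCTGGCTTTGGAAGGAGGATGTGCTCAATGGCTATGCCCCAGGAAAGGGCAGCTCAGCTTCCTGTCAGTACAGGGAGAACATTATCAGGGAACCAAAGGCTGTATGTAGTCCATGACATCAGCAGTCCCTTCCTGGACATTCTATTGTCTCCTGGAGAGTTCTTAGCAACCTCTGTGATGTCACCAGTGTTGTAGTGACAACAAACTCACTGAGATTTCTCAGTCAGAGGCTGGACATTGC
Speer4c: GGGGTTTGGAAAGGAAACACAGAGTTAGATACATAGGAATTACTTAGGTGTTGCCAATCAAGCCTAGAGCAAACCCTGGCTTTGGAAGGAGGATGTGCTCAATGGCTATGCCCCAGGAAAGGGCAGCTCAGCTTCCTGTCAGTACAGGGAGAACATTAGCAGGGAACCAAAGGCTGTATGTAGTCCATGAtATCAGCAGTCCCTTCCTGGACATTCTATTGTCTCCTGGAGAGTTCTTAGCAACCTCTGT

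Almost all bases of these upstream sequences are in capitals, 214 of 250 in Gm9758, 225 in Gm10354, 250 in Gm21190 and 249 in Speer4c. In a global alignment of the whole start windows, Gm9758 and Speer4c were identical in 92.6% of aligned columns, and Gm10354 and Gm21190 in 85.9%. The other 4 pairs were identical in 63.8% to 76.3% of columns, gaps included. Peaks on such copies share reads between copies to an extent that depends on how multiply mapping reads were treated, for which the sources used here give no setting. Heights at a single copy are therefore uncertain. The height of a peak is the number of sequenced fragments stacked at its summit. At the Gm9758 start window it was 14 fragments in WT replicate 1, 22 in Igf2bp2KO replicate 1 and 20 in Igf2bp2KO replicate 2, and WT replicate 2 listed no peak there. The Gm21190 start window had 18 fragments in WT 1, none listed in WT 2, 23 in Igf2bp2KO 1 and 14 in Igf2bp2KO 2. At Gm10354 the values were 9, none listed, 14 and 11 in the same order. At all 3 starts WT replicate 2 was the library without a peak. Speer4c had 9 fragments in WT 1 and 11 in Igf2bp2KO 2, with no peak of 8 or more on its start window in the other two.

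Starts outside the Speer array are shown for contrast. Gm21119 (chr8:20614677-20614926, plus strand) lies in the beta-defensin neighbourhood of chromosome 8, and its start window was identical over all 300 aligned bases to those of 4930467E23Rik and Gm15319. Mroh2a (chr1:88226770-88227019, plus strand) shares no such run with another gene.
Gm21119: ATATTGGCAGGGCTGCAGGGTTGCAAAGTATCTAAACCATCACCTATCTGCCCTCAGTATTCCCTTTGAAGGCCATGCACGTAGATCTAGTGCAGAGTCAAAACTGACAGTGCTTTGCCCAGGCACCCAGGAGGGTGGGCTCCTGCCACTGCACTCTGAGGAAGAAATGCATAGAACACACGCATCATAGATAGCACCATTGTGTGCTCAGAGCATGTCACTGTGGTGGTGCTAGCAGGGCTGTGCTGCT
Mroh2a: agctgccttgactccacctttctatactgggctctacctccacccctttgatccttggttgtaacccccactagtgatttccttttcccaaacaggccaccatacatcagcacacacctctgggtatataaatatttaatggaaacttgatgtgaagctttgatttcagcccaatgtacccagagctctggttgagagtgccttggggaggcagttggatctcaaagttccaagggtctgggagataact

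The Gm21119 start window held 13 and 8 fragments in the WT libraries and 15 and 12 in the Igf2bp2KO libraries, so the genotypes overlapped. Mroh2a held 17 fragments in WT 1, no peak of 8 or more in WT 2, and 13 and 11 in the Igf2bp2KO libraries. Of 31396 start windows in the RefSeq table, 21 had a peak of 8 or more fragments in at least 1 Igf2bp2KO list. In 10 of these 21, at least 50% of the runs of 31 bases were found at another gene. The same held for 25 of the 123 windows (20.3%) with such a peak in at least 1 WT list. With a peak in both lists of a genotype the counts were 4 of 8 in Igf2bp2KO and 10 of 18 in WT. Over all start windows the share was 3.57%.

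The lists differed first in how low their peaks went. The WT lists held 160428 and 123625 peaks on chromosomes 1 to 19 and the Igf2bp2KO lists 912 and 1124. WT pileups were whole numbers of fragments. Igf2bp2KO pileups were multiples of 0.277 and 0.302, and they were divided by that step to give fragments. After that the background of each list was close, at 1.46 and 1.44 fragments in WT libraries and 1.45 and 1.33 in Igf2bp2KO libraries. The lowest summit was 4 fragments in both WT lists but 8 and 7 in the Igf2bp2KO lists, and the commonest summit was 6 and 5 in WT against 12 and 10 in Igf2bp2KO. Only heights of 8 or more can be compared, and every list had a shortest peak of 200 bp. The sequencing depth is unknown, since the files hold peaks and not reads, and no counting interval is given. The highest summits, 398, 390, 394 and 394 fragments, lie close to 400, which is 2 times that shortest length. Removal of duplicate reads would cap heights near such a value, and the sources used here do not state it. The WT libraries also differed from each other outside the autosomes. Chromosome X held 1.23% of the peaks of WT 1 and 7.68% of WT 2, against 4.77% and 7.69% in Igf2bp2KO. Chromosome Y held 1.35% and 0.0297% in WT, against 0.0973% and 0.159% for the Igf2bp2KO libraries. The part of these differences in the results below was not tested.

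At 8 or more fragments, WT lists held far more peaks than Igf2bp2KO lists. There were 14309 and 7821 such peaks in WT and 912 and 1112 in Igf2bp2KO. Peaks of the 4 lists within 500 bp of each other were merged into regions, so that a wide peak and its pieces count once. This left 13393 and 7179 regions in WT and 433 and 580 in Igf2bp2KO. The groups did not overlap, and the WT geometric mean was 19.6 times that of Igf2bp2KO. This gap is one of listed regions and not of the amount of the mark, since the lists differ in how low their peaks go. In bulk chromatin, fewer cells with a mark and less mark per cell could not be told apart in any case. The exact permutation test gave a two-sided p of 0.333, the smallest that 2 libraries against 2 allow.

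That gap lay in the lowest heights. Regions whose highest summit was 8 to 11 fragments numbered 12933 and 6926 in WT and 92 and 305 in Igf2bp2KO. At exactly 8 fragments there were 9459 and 5340 peak summits in WT and 5 and 90 in Igf2bp2KO. From 12 fragments up the region counts were 460 and 253 in WT and 341 and 275 in Igf2bp2KO, and the groups overlapped (log2 difference -0.16, two-sided exact permutation p = 1). From 16 up they were 157 and 83 in WT and 162 and 116 in Igf2bp2KO (log2 difference 0.26, two-sided exact permutation p = 0.667). From 24 up there were 50 and 31 against 66 and 43, and from 32 up 35 and 20 against 36 and 28. At 64 or more, 19 and 12 WT regions stood beside 12 and 13 Igf2bp2KO regions. The order of the genotype means at 16 turned when the Speer array was left out, to 136 and 83 in WT and 97 and 72 in Igf2bp2KO (log2 difference -0.35). It also turned without WT replicate 2 (-0.20). The lists' different lowest heights and the genotypes cannot be told apart as the source of the gap below 12 fragments.

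**Figure D1:**
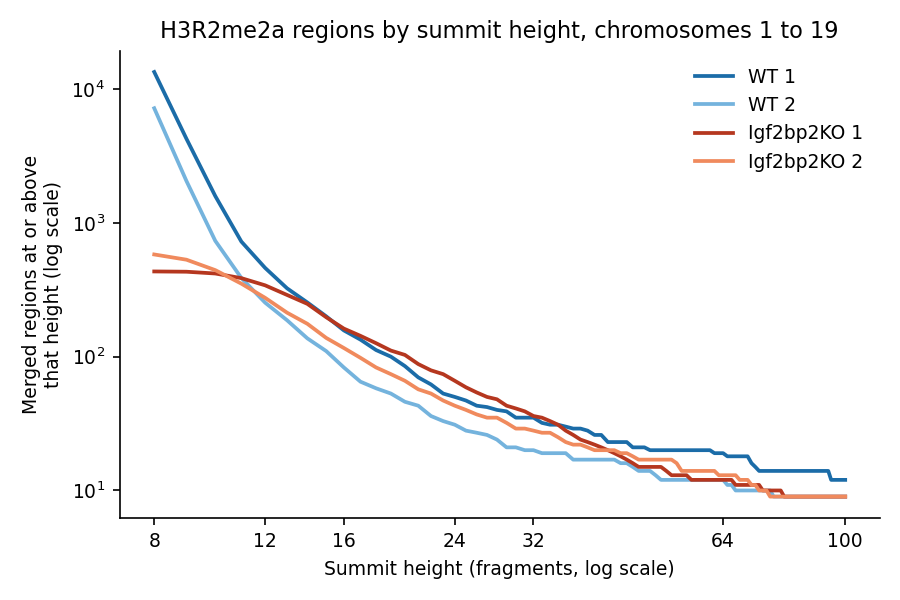
Number of merged regions (log scale) with a summit at or above each height in fragments (log scale), 1 line per library. At 8 fragments the WT lines stand at 13393 and 7179 and the Igf2bp2KO lines at 433 and 580; from 12 fragments up the lines of the genotypes interleave.

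Sharing between lists followed height in the same way. Here a region counts as held or listed by a library only with a summit of 8 or more fragments there, and lower peaks were not counted. Of 19990 regions in all, 12513 were in WT 1 alone and 6381 in WT 2 alone. Most WT regions thus had no summit of 8 or more in the other WT library. Both WT lists held 762 regions, both Igf2bp2KO lists 297, and all 4 lists 220. Of the 453 replicated WT regions whose lower WT summit was 8 or 9 fragments, 40 (8.83%) were in both Igf2bp2KO lists. The share was 43 of 142 at 10 to 11 fragments, 76 of 105 at 12 to 15, 31 of 32 at 16 to 23, and 30 of 30 at 24 and above. In the other direction, 220 of the 297 replicated Igf2bp2KO regions were in both WT lists (74.1%), 66 were in 1 WT list and 11 in neither. Most of these 11 had a lower WT peak, of 5 to 7 fragments. At 16 or more fragments in both Igf2bp2KO lists, 73 of 92 regions were in both WT lists, 18 in 1 and 1 in neither. WT 1 listed 91 of these 92 and WT 2 listed 73.

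**Figure D2:**
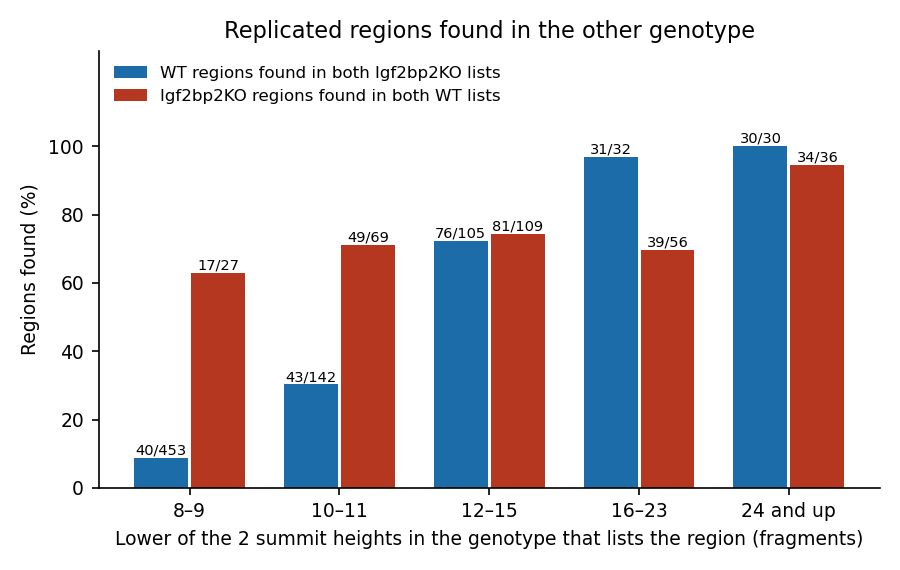
Percent of replicated regions of one genotype that both lists of the other genotype held at 8 or more fragments, by the lower of the 2 summit heights; the fraction stands above each bar. WT regions found in Igf2bp2KO went from 40 of 453 at 8 to 9 fragments to 30 of 30 at 24 and above.

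Regions of 16 or more fragments in both libraries of one genotype and under 8 in both of the other numbered 1 on each side. The WT one (chr16:98107528-98107799) lay 90772 bp from its nearest protein-coding gene, B230307C23Rik, with 22 and 19 fragments in WT and no peak in Igf2bp2KO. The Igf2bp2KO one (chr5:15624201-15624845) lay 337 bp from Speer4d, with 20 and 19 fragments in Igf2bp2KO, a peak of 5 in WT 1 and none in WT 2. At 12 or more fragments the counts were 10 and 4. All 4 Igf2bp2KO regions lay in the Speer array, and in each WT 1 had a peak of 5 to 7 fragments and WT 2 none. The 10 WT regions lay on 8 chromosomes, with heights of 12 to 22 fragments. They included one 5424 bp from Cdkn1a, the gene of the cell cycle inhibitor p21 (13 and 14 fragments). Another overlapped Sprr2a2, a small proline-rich protein gene of the skin barrier (18 and 12). One lay across Sp110 and Sp140 (12 and 12).

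Heights were compared at the 220 regions that all 4 lists held at 8 or more fragments. The log2 ratio of the highest summit to the list's own background was tested with limma, with Benjamini-Hochberg adjustment over all 220. No region passed an adjusted p of 0.05 in either direction (percent called 0 higher and 0 lower), and the lowest adjusted p was 0.293. At an unadjusted p under 0.05 there were 16, of which 14 were higher and 2 lower in Igf2bp2KO. The median difference was 0.03 on the log2 scale, with a median standard error of 0.25. In 31 regions (14.1%) both Igf2bp2KO values exceeded both WT values, and in 26 (11.8%) both were below. As a description across these 220 regions, which differ widely in height, the log2 heights of the WT libraries had a Pearson r of 0.893, those of the Igf2bp2KO libraries 0.919, and pairs across genotypes 0.840 to 0.917. Among the 200 regions under 64 fragments in all 4 lists, the r between the WT libraries was 0.571 and that between the Igf2bp2KO libraries 0.675.

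**Figure D3:**
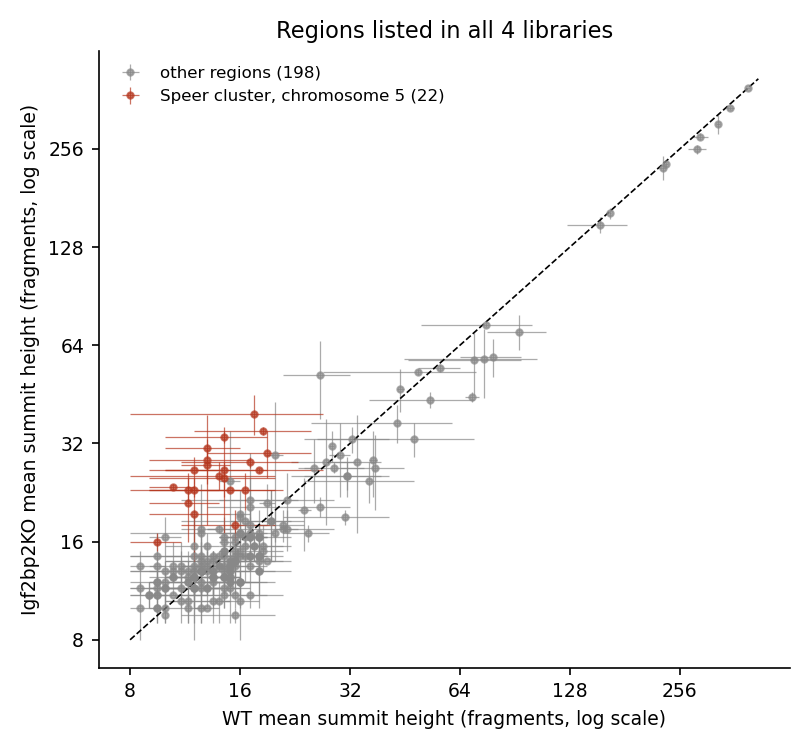
Mean summit height in Igf2bp2KO against that in WT (fragments, log scales) at the 220 regions listed in all 4 libraries; bars span the 2 libraries of a genotype and the dashed line is equality. The 22 regions of the Speer array all lie above the line, and the other 198 lie on both sides of it.

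At the tallest regions the listed summit heights differed by little between the genotypes. Removal of duplicate reads, which the sources used here do not state, would cap the very highest summits. Under such a cap those summits could not differ, so no unchanged mark is read from them. Inputs were not used, so whether the tallest regions hold the mark was not tested. The first of the tallest regions (chr2:98666047-98667526) lay more than 1 Mb from its nearest protein-coding gene, Lrrc4c. It had 398 and 390 fragments in WT and 394 and 394 in Igf2bp2KO. The next (chr9:35304874-35305751), 28917 bp from Rpusd4, had 360 and 343 against 347 and 337. Inside Chl1, which encodes a neural cell adhesion molecule of the L1 family, a region at chr6:103648947-103649640 had 166 and 164 against 156 and 169. Over the 9 regions of 64 or more fragments in all 4 lists, log2 differences ran from -0.10 to 0.06, and 1 region did not overlap between genotypes (lower in Igf2bp2KO). In 2 other tall regions the WT libraries differed from each other by more than the genotype means did. Aida, whose product binds axin, had 101 and 50 fragments in WT and 73 and 75 in Igf2bp2KO. Lars2, the mitochondrial leucyl-tRNA synthetase gene, had 70 and 26 against 37 and 29; it and Aida were picked after their values were seen.

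The 22 regions of the Speer array (chromosome 5, 14 to 16 Mb) that all 4 lists held were higher in Igf2bp2KO in every case. Their median summit was 19 fragments in WT 1, 9 in WT 2, 27.5 in Igf2bp2KO 1 and 23 in Igf2bp2KO 2. The median log2 difference was 1.00 (0.33 to 1.47), 16 of 22 did not overlap between genotypes, and 11 had an unadjusted limma p under 0.05. None passed adjustment. Over the other 198 regions the median was 0.01, with 100 higher and 98 lower, and 15 above and 26 below without overlap. The spread between WT libraries was of similar size, since WT 1 exceeded WT 2 at 22 of 22 regions with a median log2 gap of 0.90. Against WT 1 alone the median difference was 0.57, with 21 of 22 higher, and against WT 2 alone it was 1.42. Igf2bp2KO 1 exceeded WT 1 at 20 of 22 regions and Igf2bp2KO 2 exceeded it at 16. Of these 22 regions, 3 reached 12 fragments in every list.

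The 8 regions with the largest positive difference were all in this array. In a region 27529 bp from Speer4c (chr5:15677815-15681976) the summits were 27 and 8 fragments in WT and 34 and 45 in Igf2bp2KO, a log2 difference of 1.47 ± 0.59 (SE). At 7887 bp from Gm10354 (chr5:14986842-14991160) they were 16 and 10 against 33 and 29 (1.35 ± 0.29). A region 17644 bp from Gm17019 (chr5:15002589-15011306) had 19 and 10 against 32 and 35. At 4590 bp from Gm21149 (chr5:15481126-15482303) the values were 12 and 9 against 24 and 23 (1.24 ± 0.24, limma adjusted p = 0.293). In the region 16059 bp from Speer4d (chr5:15639923-15644635) they were 14 and 10 against 29 and 24. In that 10221 bp from Speer4e (chr5:14948696-14958260) they were 15 and 11 against 31 and 24. The remaining ones lay 18159 bp and 785 bp from Gm17019. Apart from the region at chr5:15051175-15052147, with 17 and 9 against 39 and 18 fragments, each of the 8 had both Igf2bp2KO summits at least 7 fragments above both WT summits. With WT 1 as the only WT library, 3 examples were 27 against 34 and 45, 16 against 33 and 29, and 12 against 24 and 23.

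The number of regions in the array told the same about WT replicate 2. At 8 or more fragments the array held 93 regions in WT 1, 24 in WT 2, 95 in Igf2bp2KO 1 and 93 in Igf2bp2KO 2. These were 0.694% and 0.334% of the WT lists and 21.9% and 16.03% of the Igf2bp2KO lists. At 16 or more there were 21, 0, 65 and 44, or 13.4%, 0%, 40.1% and 37.9% of the list (two-sided exact permutation p = 0.333, the smallest possible). At 16 or more fragments the genotypes did not overlap, while at 8 or more WT 1 was level with Igf2bp2KO. Among genes, the bodies of Speer4c, Speer4d and Speer4e with 1 kb either side had peaks of 15, 10 and 11 fragments in WT 1 and none of 8 or more in WT 2. In Igf2bp2KO they had 21 and 16, 20 and 19, and 23 and 12.

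**Figure D4:**
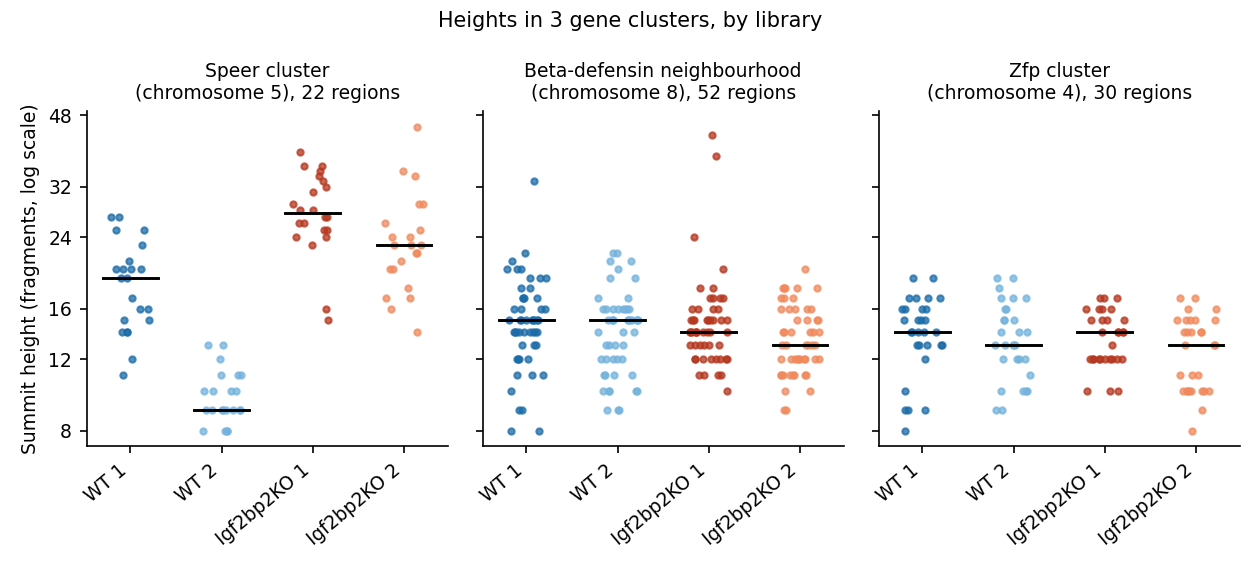
Summit heights in fragments (log scale) of the regions listed in all 4 libraries in 3 gene clusters, 1 point per region and library; black bars are medians. In the Speer cluster the medians are 19, 9, 27.5 and 23, whereas in the chromosome 8 and chromosome 4 clusters all 4 libraries lie between 13 and 15.

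The clusters of chromosomes 8, 4 and 11 had median differences nearer to 0. The beta-defensin neighbourhood of chromosome 8 (19 to 21 Mb), which holds genes of small antimicrobial peptides, had 52 regions in all 4 lists, with median summits of 15 and 15 fragments in WT and 14 and 13 in Igf2bp2KO. Its median log2 difference was 0.04, and 31 of 52 regions were higher. Without division by the background the median was -0.01, with 26 of 52 higher. A cluster of zinc finger genes on chromosome 4, over 3 Mb around Zfp978, had 30 regions, with medians of 14 and 13 against 14 and 13 and a median log2 difference of -0.05. Inside Sfi1, a gene for a centrin-binding protein of centrosomes, the tallest region (chr11:3183729-3200062) had 64 and 49 fragments in WT and 56 and 53 in Igf2bp2KO. The 12 regions of this part of chromosome 11 had a median log2 difference of -0.04. The 14 regions of chromosome 6 near Ezh2 (47 to 48 Mb), the gene of the H3K27 methyltransferase, had a median of -0.25, with 4 (28.6%) lower without overlap, against 11.8% of all 220 regions. The 8 regions of the chromosome 1 bin of Sp140 had a median of 0.26, with 3 (37.5%) higher without overlap, against 14.1% of all. None of the regions of these last 2 clusters had an unadjusted p under 0.05.

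Outside the Speer array 5 regions had an unadjusted limma p under 0.05, and none passed adjustment (lowest adjusted p = 0.531). Vps45, which encodes a protein of vesicle fusion, had a region (chr3:96044520-96045050) with 72 and 66 fragments in WT and 46 and 43 in Igf2bp2KO (log2 difference -0.57 ± 0.20 SE). Zfp978, a zinc finger gene, had 17 and 17 against 12 and 10 at chr4:147354146-147356599 (-0.58 ± 0.21 SE). Neither overlapped between genotypes, and the values within each genotype were close. The remaining 3 were higher in Igf2bp2KO and were picked after their values were seen. Of 2 regions at Tmem267, a gene for a transmembrane protein, the taller (chr13:119595635-119617694) had 21 and 32 fragments in WT and 66 and 38 in Igf2bp2KO. The lower one had 9 and 11 against 19 and 14. A region by Gm51591 had 9 and 8 against 15 and 12. The remaining 6 of the 8 largest negative differences had 8 to 48 fragments in the 4 lists, with unadjusted p from 0.0974 to 0.330 and log2 differences from -0.59 to -0.43.

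Along chromosomes, the regions of the Igf2bp2KO lists were concentrated in few places. The 5 densest bins of 1 Mb, taken over all 4 lists, held 3.53% and 5.04% of WT regions at 8 or more fragments and 46.9% and 36.03% of Igf2bp2KO regions. The densest, a zinc finger gene bin on chromosome 4 that holds Zfp978, had 121 and 105 regions in WT and 27 and 49 in Igf2bp2KO. In the chromosome 8 bin of Gm15319 there were 91 and 83 against 60 and 49. The chromosome 1 bin of Sp140 and Sp110, interferon-induced genes of nuclear bodies, had 105 and 79 against 29 and 15. The Speer bin of Gm21190 had 70 and 18 against 71 and 71, and was the bin of these 5 without more regions in each WT list than in either Igf2bp2KO list. Some bins that were dense in WT were empty in Igf2bp2KO. The bin of Pramel38 on chromosome 5 had 23 and 17 regions in WT, that of Mup5, a major urinary protein gene, 21 and 12, and neither had any in Igf2bp2KO. A bin of chromosome 14 with Gm8126 had 54 and 3 in WT and none in Igf2bp2KO, so that value rested on WT 1. None of these last 3 bins had a region of 16 or more fragments in any list.

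The share of each list per bin was tested with limma on log2(regions + 0.5) less the log2 list total. Of 830 bins tested, 104 (12.5%) had a higher share in Igf2bp2KO at an adjusted p of 0.05 and 0 (0%) a lower one. The count rests on the pseudocount and on the list total: with a pseudocount of 2 all 830 were called higher, and without subtraction of the total none was higher and 731 were lower. The 13 bins with at least 5 regions in every list were all called (100%). At 16 or more fragments 10 bins could be tested and 1 was called, the Speer bin of Gm21190, with 16 and 0 regions in WT and 50 and 33 in Igf2bp2KO (log2 difference in share 3.58 ± 1.07 SE, adjusted p = 0.0315). The WT libraries differed from each other in this bin by all 16 WT regions. The SE was the same for all 10 bins, so this limma p-value carries a spread pooled over bins and not that of this bin. The WT 2 value tested was the pseudocount less the log2 list total. No direction is read from the other bins.

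**Figure D5:**
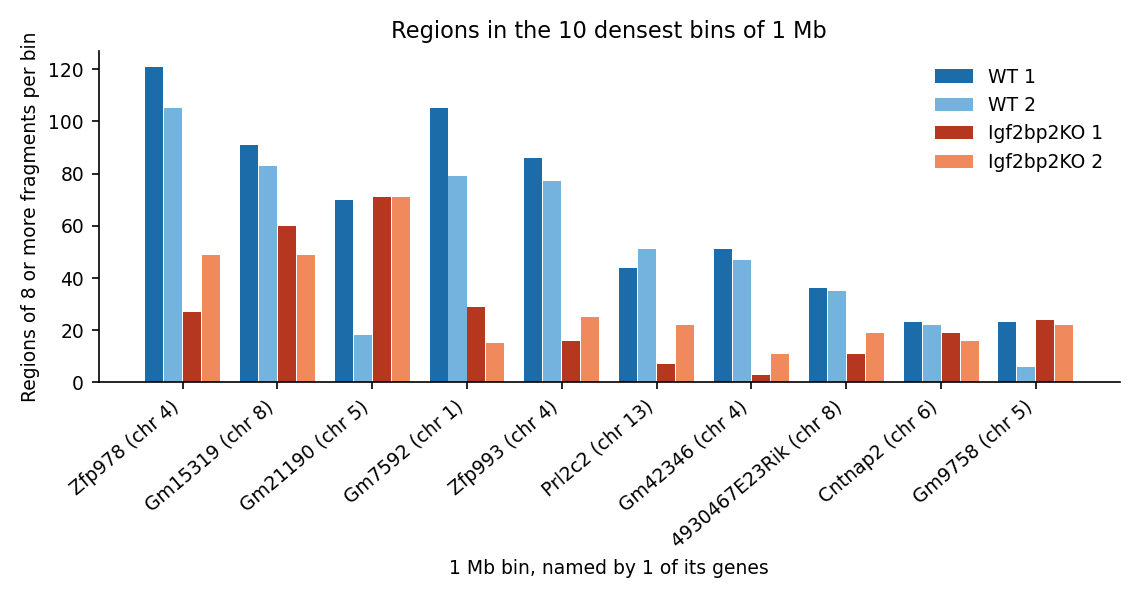
Number of regions of 8 or more fragments in the 10 densest bins of 1 Mb, by library; each bin is named by 1 of its genes. Bins of the Speer array (Gm21190 and Gm9758) have 18 and 6 regions in WT 2 and 70 and 23 in WT 1, beside 71 and 71 and 24 and 22 in Igf2bp2KO.

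Relative to genes, merged regions that Igf2bp2KO lists held at 8 or more fragments overlapped gene ends more often than those held by WT lists. A region counted when any part of it overlapped 1 kb either side of an end of a protein-coding gene. Regions were merged over all lists, so that part could be a peak of the other genotype. How often this was so was not tested. The gene body and intergenic shares below were taken on the same merged regions. The share was 3.39% and 3.19% in WT and 16.6% and 12.1% in Igf2bp2KO, a difference of 11.1 percentage points (two-sided exact permutation p = 0.333, the smallest possible). Widths of regions merged over all lists had medians of 279 and 291 bp in WT and 1631 and 1220 bp in Igf2bp2KO. Each list's own peaks of 8 or more fragments had medians of 282 and 295 bp in WT and 326 and 304 bp in Igf2bp2KO. A wider region overlaps such a window more readily, and the part of width in this difference was not tested. At 16 or more fragments the share was 21.02% and 16.9% against 22.2% and 18.97%, and the groups overlapped (exact permutation p = 0.667). Median widths of merged regions at that height were 2493 and 2503 bp in WT and 2027.5 and 2056 bp in Igf2bp2KO. Those of each list's own peaks were 961 and 1025.5 bp against 486.5 and 605 bp. The share within gene bodies at that height was 38.9% and 42.2% in WT and 30.9% and 29.3% in Igf2bp2KO, and the intergenic share was 59.9% and 57.8% against 65.4% and 67.2% (exact permutation p = 0.333 for both). Within the Speer array, 80.95% of such regions in WT 1 and 78.5% and 79.5% in Igf2bp2KO were intergenic. Outside it the intergenic share was 56.6% and 57.8% in WT and 56.7% and 59.7% in Igf2bp2KO, and the groups overlapped (two-sided exact permutation p = 0.667). The share in gene bodies outside the array was 42.6% and 42.2% against 40.2% and 38.9% (exact permutation p = 0.333), a difference of -2.86 percentage points in place of -10.4.

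The 3 genes the study turns on had little signal. Igf2bp2 itself (chr16:22059009-22163299) had a peak of 11 fragments in WT 1, a peak of 7 in WT 2 and none in Igf2bp2KO. Prmt6, which encodes the writer of the mark, had a peak of 5 fragments in WT 1 and none in the rest. Mfsd2a, a transporter of lysophospholipids, had no peak of any height in any list. The lower WT height at Igf2bp2, 7 fragments, is under the heights that can be compared. Of replicated WT regions whose lower height was 8 to 9 fragments, 8.83% were in both Igf2bp2KO lists and 71.7% in neither. At a lower height of 10 to 11 fragments the shares were 30.3% and 31.7%.

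Among 20665 protein-coding genes, 996 (4.82%) had a peak of 8 or more fragments in or within 1 kb of the gene in both WT lists and 75 (0.363%) in both Igf2bp2KO lists. The height of a gene is that of its highest peak in each list. The peaks of the 2 lists of a genotype need not lie at the same place in the gene. The overlap was 67 genes (0.324% of all genes), which is 89.3% of the Igf2bp2KO genes and 6.73% of the WT genes. Genes called in WT with no peak of 8 or more in either Igf2bp2KO list numbered 891 (4.31%), and in the reverse case there were 0 (0%). Of these 891 genes, 161 reached 9 fragments in both WT lists, 22 reached 10 and 1 reached 12. The last was Lsamp, a neuronal adhesion gene of 2197426 bp, with 12 and 15 fragments. None of the 10 regions of 12 or more fragments in WT alone lay in it. Others were high in 1 WT list, such as Fgf14, a fibroblast growth factor gene, and Gphn, the gene of the synaptic scaffold gephyrin, both with 20 fragments in WT 1 and 11 in WT 2. Fgf14 and Gphn were picked after their values were seen.

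The 2 WT genes of 10 IGF2BP and YTH readers of m6A were Igf2bp3, a paralog of Igf2bp2 (10 and 8 fragments), and Ythdc2, an RNA helicase that reads m6A (8 and 10). None of the 10 was called in Igf2bp2KO. Of 20 blood and leukemia stem cell regulators 2 were called in WT and none in Igf2bp2KO, namely Meis1, a homeobox cofactor of leukemia (11 and 8), and Runx1, a regulator of blood formation (8 and 8). Over all genes the shares called were 4.82% in WT and 0.363% in Igf2bp2KO. The called readers and regulators held 8 to 11 fragments. Regions with a highest summit of 8 to 11 fragments numbered 12933 and 6926 in WT and 92 and 305 in Igf2bp2KO. They were 61991 to 224609 bp long, against a median of 17491 bp over all genes. No gene was called in either genotype among 11 m6A writers and erasers, 10 protein arginine methyltransferases, 20 fatty acid transport genes, 11 genes of H3K4 methyltransferase complexes, 20 myeloid genes, 76 cytosolic ribosomal protein genes or 39 Hox genes. The same was true of the marker lists for other cells that bone marrow holds, with 12 T and B cell, 9 erythroid and megakaryocyte, and 8 stromal and endothelial genes. Of 1104 olfactory receptors 1 was called in WT, and of 354 vomeronasal receptors 3, and none in Igf2bp2KO.

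Of the 67 genes called in both genotypes, 9 were Ugt1a and 10 were Zfp genes. All 9 Ugt1a genes, which encode enzymes that conjugate bilirubin and drugs with glucuronic acid, were called in both genotypes. They share their last exons and hence their peaks, with 18 and 14 fragments in WT at all 9 and 19 and 15 in Igf2bp2KO at 7 of them. Of 388 Zfp genes, 24 (6.19%) were called in WT and 10 (2.58%) in Igf2bp2KO, and all 10 were called in both genotypes. These 10 all lay in the chromosome 4 cluster around Zfp978, so their share is not a trait of the whole family. Some overlap one another and share peaks, such as Zfp978 and Zfp988. Over all genes the shares were 4.82% and 0.363%. Zfp600 had 19 and 19 fragments in WT and 16 and 17 in Igf2bp2KO, and Zfp979 had 16 and 17 against 17 and 14. As for the Speer family, 3 of 10 genes (30%) were called in Igf2bp2KO and none in WT, where WT 2 lacked the peaks. Sp140 had 14 and 12 fragments in WT and 16 in Igf2bp2KO 1 only, and Chil3, a chitinase-like gene of macrophages, had 13 and 11 in WT and 11 in Igf2bp2KO 2 only. Neighbours of the Ugt1a genes were called in both genotypes too. These were Mroh2a (17 and 13 against 13 and 12), Hjurp, the chaperone gene of the centromeric histone CENP-A (15 and 13 against 14 and 9), and Trpm8, a cold-sensing channel gene (15 and 10 against 16 and 13).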

How the data were processed

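H3R2me2a ChIP-seq peak lists of 2 WT and 2 Igf2bp2KO mouse bone marrow libraries were used. MACS2 2.1.0 (peaks), HISAT2 (an aligner) and the build mm10 stand in the submitters' processing notes, with no settings. The authors deposited 1 list per library, per the labels, and replicates were not pooled. Per the file headers, each deposited peak has a summit pileup, a coverage signal in fragments. The deposited fold enrichment is a ratio, which equals the pileup plus 1 over the list's background plus 1. The deposited -log10 p-value and -log10 q-value were used only for a q filter. These scores are the authors' and describe peaks within a list.

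Igf2bp2KO pileups were divided by their step to give fragments. Peaks of 8 or more fragments within 500 bp were merged across lists. Protein-coding genes came from RefSeq (GRCm38.p6). A table of start windows covered 16457 of the 20665 genes on chromosomes 1 to 19. Heights and bin shares were tested with limma 3.58.1 (R 4.3.3) with Benjamini-Hochberg adjustment, at a threshold of 0.05. Library values were tested with two-sided exact permutation over 6 splits. Both limma fits were tested on simulated data. Named were the 3 genes of the study, the 10 tallest shared regions, the 8 largest differences each way, regions of 1 genotype alone, the densest bins and members of gene lists with a peak. Members, lists and tests were chosen with earlier results of these data known. Alternatives were other heights, merging distances, scalings, pseudocounts, windows, chromosome sets and left-out libraries. The inputs and other lists of the series were not used here.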

Additional observations from a re-analysis of the deposited data

How the results depend on the processing

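Fewer Igf2bp2KO peaks and regions at 8 or more fragments, and the higher share of these merged regions at gene ends, kept their direction under every alternative run. For the counts most of these alternatives kept a height near 8 fragments in every list. Pileups as deposited raised it in the Igf2bp2KO lists alone (log2 difference -7.87 for peaks and -7.99 for regions). The q filter left fewer peaks in every list (-5.17 and -5.30). At 12 or more fragments the log2 difference was 0.19 for peaks and -0.16 for regions, and the groups overlapped in both. At 16 or more fragments the directions of the counts did not hold. With pileups as deposited, not divided by the step, the log2 difference was -3.18 for peaks and -3.07 for regions, and with q of 0.05 or below it was -0.58 and -0.63. The first follows from the construction, since the deposited Igf2bp2KO pileups are scaled down. For the q filter the cause was not tested. Without the 5 densest bins the difference in regions was -0.10, and without 14 to 16 Mb of chromosome 5 (chosen after seeing the data, as were bins with 5 regions in every list) it was -0.35. Leaving out 1 library moved it from -0.20 to 0.72.

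For heights, covered length in place of the summit called 54 regions lower. In the Speer array 21 of 22 regions had more covered length in Igf2bp2KO (median log2 difference 0.72) and 197 of 198 elsewhere had less, and the cause was not tested. Every other alternative called none. Bins called higher numbered 0 without subtraction of the total (731 lower), 1 at 16 or more fragments, 830 with pseudocount 2, 13 with 5 regions in every list, and 5 to 193 when 1 library was left out (0 to 1 lower). Regions of 1 genotype alone numbered 10 in WT and 4 in Igf2bp2KO at 12 fragments, and 0 and 0 at 24. For Igf2bp2KO there were 2 with merging of overlapping peaks only, and 0 where the other genotype could hold no peak of any height. Leaving out 1 library gave 1 to 15 in WT and 1 to 19 in Igf2bp2KO. Igf2bp2KO regions found in WT lists averaged 71.1%, and 85.8% at 16 fragments. WT regions found in Igf2bp2KO averaged 3.70%, 1.67% with 50% overlap, and 90.2% at 16 fragments. With peaks at gene ends only, 62 genes were called in WT and 45 in Igf2bp2KO. Of the named regions, 1 lay 102784 bp from Csf2ra, and leaving out 1 library moved its log2 difference from -0.88 to 0.0081 (without Igf2bp2KO replicate 1). That of the region in Cmss1 and Filip1l moved from -0.91 to 0.062 (without WT replicate 1).

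The replicate numbers did not pair libraries (correlation of deviations -0.06 over 220 regions). A replicate block called 107 bins higher in place of 104 and no region height.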
